A study of Rattus norvegicus with 8 samples.

Results

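MicroRNAs (miRNAs) of the miR-106b, miR-93 and miR-25 cluster were measured in rat kidney after removal of the other kidney. The members were all array entries that name rno-miR-106b, rno-miR-93 or rno-miR-25, with either arm of the hairpin, and they numbered 6 of the 758 miRNAs on the array. They were rno-miR-106b-5p, rno-miR-106b-3p, rno-miR-93-5p, rno-miR-93-3p, rno-miR-25-3p and rno-miR-25-5p. The tissue was the right kidney of male rats of the inbred strain F344/NSlc, aged 10 weeks. The nephrectomized group held 4 arrays of kidneys left after unilateral nephrectomy, labelled day 2, and the sham group held 4 arrays of kidneys from sham-operated rats, labelled day 1. If these labels are right, time and surgery cannot be told apart, although the design text names 2 days for the study. Nothing in the labels describes the rats beyond this, and each array was taken as 1 rat. The comparison asks how the cluster differs in a kidney that has taken over the work of its removed partner.

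A miRNA is cut from a hairpin whose arms are named 5p and 3p, and usually one arm accumulates while the other is degraded. The mature strand guides the silencing complex to messenger RNAs, chiefly by pairing of its seed, bases 2 to 8. The cluster is known to lie in an intron of Mcm7, which encodes a subunit of the helicase that opens DNA for replication, and its hairpins are made from the same transcript as that gene. In human cells miR-106b and miR-93 are known to repress CDKN1A, an inhibitor of the cell cycle, and miR-25 to repress BCL2L11, which promotes cell death.

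The arms detected in kidney are shown first, because their seeds divide the cluster. Sequences are from RefSeq (rat assembly GRCr8), written 5′ to 3′ with the seed in capitals, and RefSeq held all 6 members.
miR-106b-5p: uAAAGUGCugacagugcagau
miR-93-5p: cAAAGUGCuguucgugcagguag
miR-25-3p: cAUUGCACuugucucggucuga
miR-106b-5p and miR-93-5p carry one seed, AAAGUGC, and miR-25-3p carries another, AUUGCAC. From base 1 at the 5′ end, miR-93-5p and miR-106b-5p were identical at 16 of 21 positions, and the differences, with the base of miR-93-5p first, were C1U, U11A, U12C, C13A and G20A. The other arms are shown because the array also probed them.
miR-106b-3p: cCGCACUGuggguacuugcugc
miR-93-3p: aCUGCUGAgcuagcacuucccga
miR-25-5p: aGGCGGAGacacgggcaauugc
Each of these has a seed of its own. The hairpins of miR-93 and miR-25, with both mature arms in capitals, show that the detected arm is the 5′ one in miR-93 and the 3′ one in miR-25.
Mir93: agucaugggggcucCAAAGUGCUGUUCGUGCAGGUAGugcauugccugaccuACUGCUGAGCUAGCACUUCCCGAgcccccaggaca
Mir25: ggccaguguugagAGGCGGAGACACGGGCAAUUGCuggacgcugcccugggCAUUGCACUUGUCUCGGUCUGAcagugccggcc

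In GRCr8 all 6 mature sequences lie on the minus strand of chromosome 12, within Mcm7 and on its strand, in a span of 472 bases. The deposited files use the older build rn4, where the longest probe of miR-106b-5p is placed at chr12:17608398-17608413, that of miR-93-5p at chr12:17608195-17608209 and that of miR-25-3p at chr12:17608026-17608042. These rn4 intervals are 1 base shorter than the probes, and within each hairpin they place the 5p probe below the 3p probe, the reverse of the RefSeq order on that strand, so they locate the hairpins and not the arms. Exon and intron positions in rn4 were not used here.

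The array reads a miRNA through short DNA probes that pair with its 3′ part. The longest probes of the detected arms are shown because they decide which miRNAs can be told apart.
miR-106b-5p probe: atctgcactgtcagcac
miR-93-5p probe: ctacctgcacgaacag
miR-25-3p probe: tcagaccgagacaagtgc
The miR-106b-5p probe spans bases 5 to 21 of its miRNA, the miR-93-5p probe bases 8 to 23 and the miR-25-3p probe bases 5 to 22. Among the other array miRNAs with a RefSeq sequence, the closest to the miR-106b-5p probe was miR-17-5p with 2 mismatches, the closest to the miR-93-5p probe were miR-20a-5p and miR-20b-5p with 3 each, and the closest to the miR-25-3p probe was miR-92a-3p with 3. How much of these relatives the probes bind was not tested.

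One arm of each hairpin was detected. miR-106b-5p, miR-93-5p and miR-25-3p were each called detected on 8 of 8 arrays, and all 128 of each one's spots lay well above background. miR-106b-3p, miR-93-3p and miR-25-5p were detected on 0 of 8 arrays, and 0 of 128 spots of each lay well above background. Probe means, in background-subtracted intensity that can be negative, ran from -4.05 to 3.43 for miR-106b-3p, from -1.23 to 0.611 for miR-93-3p and from -4.47 to -0.542 for miR-25-5p. The 95th percentile of the negative control spots was 4.92 to 6.17 across arrays, above all of these means, though it is taken over single spots. The medians of the control spots were 1.89 to 2.72, which the highest mean of miR-106b-3p exceeded. The 15-base probe of miR-106b-3p averaged 2.19 in nephrectomized and 1.68 in sham arrays, while its shorter probes averaged negative values in both groups. The other arms were thus not well above background in either group, no fold is given for them, and the arms of a hairpin could not be compared. Probes of different sequence bind with different strength, so these values do not give the amount of one arm against the other.

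The values below are spot intensities averaged over the probes of a miRNA and scaled to the 75th percentile of the 214 miRNAs detected on all arrays; differences are on the log2 scale. Whole arrays differed between the groups before scaling: the log2 75th percentile was 7.40 ± 0.095 in nephrectomized and 7.68 ± 0.11 in sham arrays (SD, n = 4 each), the number of detected miRNAs was 224 to 230 on nephrectomized and 242 to 253 on sham arrays, and the log2 signal of the labelling spike-ins, RNAs added in fixed amount, was 10.20 ± 0.18 in nephrectomized and 10.56 ± 0.036 in sham arrays. In each of the 3 measures the groups did not overlap (exact two-sided permutation test, p = 0.0286, the smallest that 4 against 4 arrays allows). Per the file headers all arrays were on 1 slide, the nephrectomized ones in its row 2 and the sham ones in its row 1, so slide row and group cannot be told apart. Of the kidney tubule markers miR-192-5p, miR-194-5p, miR-204-5p and miR-30a-5p, all were detected on 8 of 8 arrays, while miR-122-5p of liver, miR-1-3p and miR-133a-3p of striated muscle and miR-124-3p of neurons were detected on 0. The other neuron marker listed, miR-9a-5p, was detected on 8 of 8, at log2 levels of 2.79 ± 0.35 in nephrectomized and 3.03 ± 0.16 in sham kidneys (SD, n = 4 each). The muscle-related rno-miR-133b-3p, rno-miR-1-5p and rno-miR-499-5p, outside the marker list and named after their values were seen, were also detected on 8 of 8, so RNA of these tissues is not shown to be absent. The listed markers of leukocytes (miR-223-3p, miR-150-5p, miR-142-3p), endothelium (miR-126a-3p, miR-126a-5p) and smooth muscle (miR-143-3p, miR-145-5p) were also detected on 8 of 8. Of the red blood cell markers, miR-144-3p was detected on 0 arrays and miR-451-5p on 8 of 8. The log2 level of miR-451-5p was 6.15 ± 0.53 in nephrectomized and 5.97 ± 0.59 in sham kidneys (SD). The arrays measured whole kidney, in which fewer cells of a type and less RNA per cell cannot be told apart.

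After scaling, miR-93-5p stood higher on every nephrectomized array than on any sham array, by a small amount that did not pass the test over all miRNAs. The scaled signal of rno-miR-93-5p was 87.4, 86.7, 90.6 and 88.8 in the 4 nephrectomized kidneys, against 78.3, 79.3, 79.0 and 81.5 in the 4 sham kidneys. The lowest nephrectomized array, replicate 2, thus lay above the highest sham array, replicate 4. On the log2 scale its level was 6.46 ± 0.028 in nephrectomized and 6.31 ± 0.025 in sham kidneys (SD, n = 4 each), a difference of +0.15 ± 0.032 (SE, limma adjusted p = 0.0764, unadjusted p = 0.00165). That is 1.11-fold, with a 95% interval of 1.05 to 1.17. The difference ranked 44 of 238 tested miRNAs from the highest, while its residual SD of 0.0267 was the 4th lowest, against a median of 0.0986.

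miR-106b-5p, which has the same seed, did not differ beyond the spread of the arrays. The scaled signal of rno-miR-106b-5p was 120.03, 115.9, 125.8 and 120.7 in nephrectomized kidneys, against 111.3, 120.9, 117.6 and 114.0 in sham kidneys. The groups overlapped, since sham array 2 lay above nephrectomized arrays 1, 2 and 4. The log2 difference was +0.057 ± 0.042 (SE, limma adjusted p = 0.449), with a 95% interval of -0.039 to 0.15.

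miR-25-3p, with the other seed, gave a similar picture. The scaled signal of rno-miR-25-3p was 131.6, 138.7, 150.04 and 142.04 in nephrectomized kidneys, against 135.8, 135.3, 133.0 and 138.4 in sham kidneys. Nephrectomized array 1 was the lowest of all 8, and the other nephrectomized arrays lay above every sham array. The log2 difference was +0.051 ± 0.045 (SE, limma adjusted p = 0.543), with a 95% interval of -0.054 to 0.16. This interval and that of miR-106b-5p both reach the estimate of miR-93-5p.

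**Figure D1:**
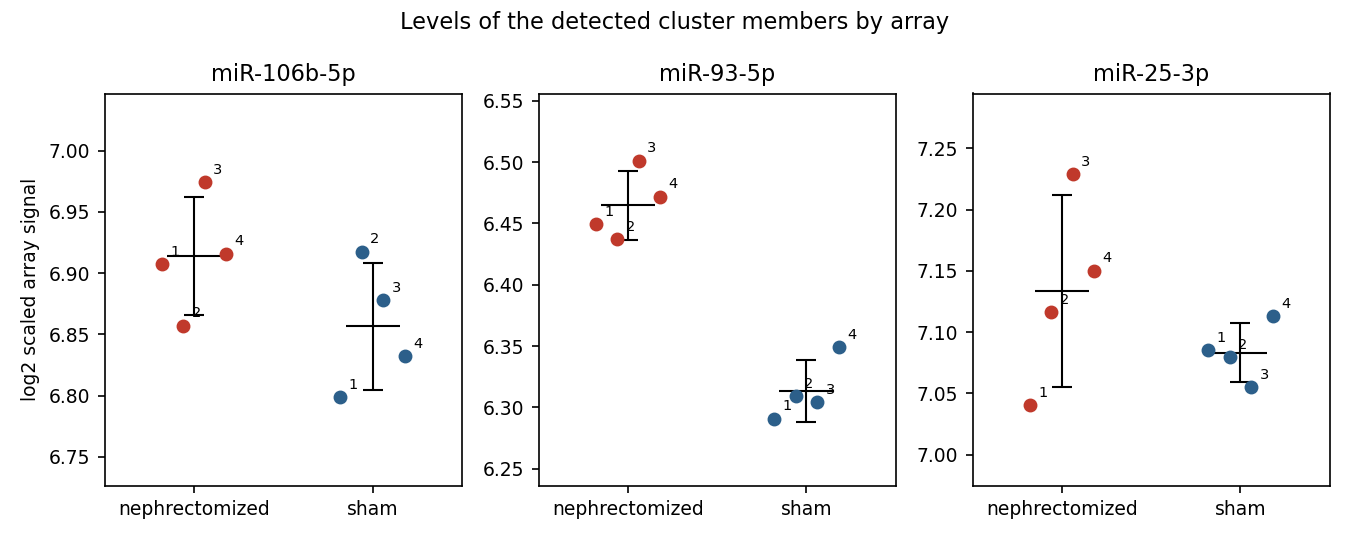
Log2 scaled signal (y axis) of miR-106b-5p, miR-93-5p and miR-25-3p on each array, nephrectomized at left and sham at right of each panel; points are arrays numbered by replicate, bars are the mean ± SD (n = 4). The groups do not overlap for miR-93-5p, at 6.46 ± 0.028 in nephrectomized and 6.31 ± 0.025 in sham kidneys, and overlap in the other panels; each panel has its own y range of equal height.

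Of the 3 members tested, 0 passed the limma threshold of an adjusted p of 0.05, as did 0 of all 238 tested miRNAs (0%). At an unadjusted p under 0.05 there was 1 member, rno-miR-93-5p, set beside 48 miRNAs of the 238 (20.2%), 37 of them higher (15.5%) and 11 lower (4.62%) in nephrectomized kidneys. The groups did not overlap for 1 of the 3 members, and for 35 of the 238 tested miRNAs (14.7%), of which 25 (10.5%) were higher and 10 (4.20%) lower in nephrectomized kidneys. All 3 members had a difference above 0, as had 113 of all tested miRNAs (47.5%), whose median difference was -0.0077. Beside these shares, 1 member of 3 is not a result about the cluster. Among the 20 tested miRNAs with mean levels in the range of the members, the groups did not overlap for 2, and among the 38 whose longest probe had a like share of G and C (52% to 57%) for 9. Both sets include the 3 members, so miR-93-5p is itself among the 2 and among the 9. The members' longest probes hold 52.9% (miR-106b-5p), 56.2% (miR-93-5p) and 55.6% (miR-25-3p) G and C.

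**Figure D2:**
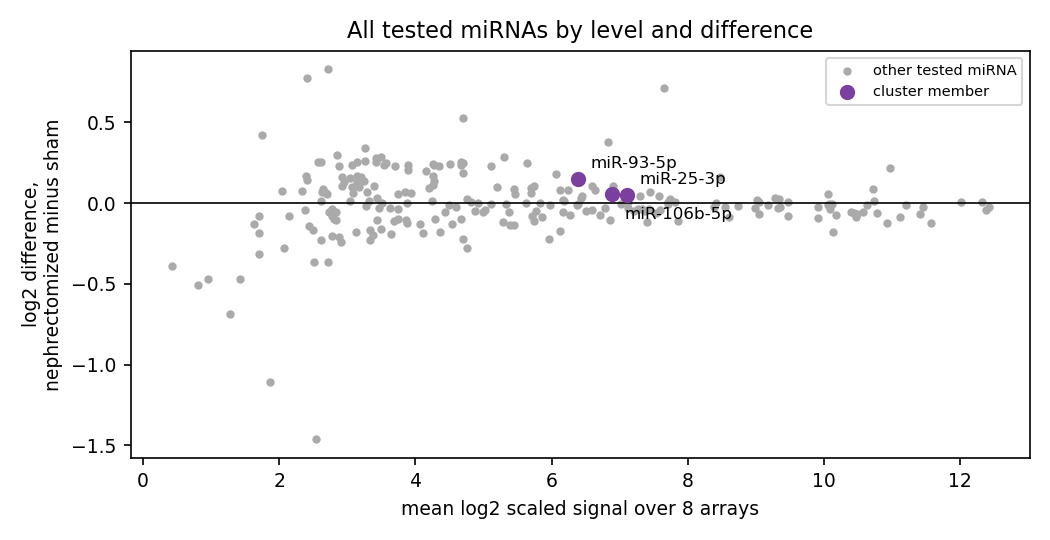
Log2 difference, nephrectomized minus sham (y axis), against the mean log2 scaled signal over 8 arrays (x axis); each point is 1 of the 238 tested miRNAs and the larger purple points are the cluster members. The members sit at +0.15 (miR-93-5p), +0.057 (miR-106b-5p) and +0.051 (miR-25-3p), within the cloud of miRNAs of like level.

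Each detected arm was read by probes of 2 lengths, and both gave the same picture. The shorter probe lies within the longer one and was read on the same arrays, so the probes are not separate support. For miR-93-5p the 15-base probe differed by +0.15 ± 0.048 (SE) and the 16-base probe by +0.15 ± 0.017, each without overlap of the groups. These SEs come from the group SDs and not from limma, so they are not comparable with the limma SEs above. For miR-106b-5p the 16-base probe differed by +0.042 and the 17-base probe by +0.065. For miR-25-3p the 17-base probe differed by +0.040 and the 18-base probe by +0.055, and all 4 of these overlapped between groups. Replicate spots of a probe on an array, with outlier spots left out (5 to 8 spots kept), varied with a CV of 0.870% to 13.1%, median 7.07%. With outlier spots kept the CV was not computed.

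The size and sign of these differences depended on the scaling. Unscaled log2 signals were 6.31 ± 0.11 in nephrectomized and 6.44 ± 0.12 in sham kidneys for miR-93-5p, 6.76 ± 0.12 in nephrectomized and 6.99 ± 0.14 in sham kidneys for miR-106b-5p, and 6.98 ± 0.11 in nephrectomized and 7.21 ± 0.10 in sham kidneys for miR-25-3p (SD, n = 4 each). Before scaling the differences were thus -0.13, -0.22 and -0.23, and the median difference of all tested miRNAs was -0.29. The unscaled groups overlapped for miR-93-5p and miR-106b-5p and did not for miR-25-3p. Without scaling, 172 of the 238 tested miRNAs were lower and 1 higher at an unadjusted limma p under 0.05. A lower unscaled signal was thus not particular to miR-25-3p. Scaled to the 75th percentile over all miRNAs on the array, which moved the median of all tested miRNAs to -0.11, miR-93-5p differed by +0.046, miR-106b-5p by -0.048 and miR-25-3p by -0.054. Scaled to the labelling spike-ins, which moved that median to +0.070, the differences were +0.23, +0.14 and +0.13. Leaving arrays unscaled or scaling each by a constant moves all differences alike, except through floored values. miR-93-5p thus kept rank 44 of 238 by construction, which is no support for its difference. It passed the threshold with normexp background correction (adjusted p = 0.00304), with the scanner software's total gene signal (adjusted p = 0.0296) and with a floor on low values 4 times higher (adjusted p = 0.0457), all in limma. Under normexp 156 of the 238 tested miRNAs passed, the median over the 238 being +0.13, and miR-93-5p ranked 109; under the total gene signal 7 passed and under the higher floor 4. For miR-93-5p the difference was +0.15 in each.

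**Figure D3:**
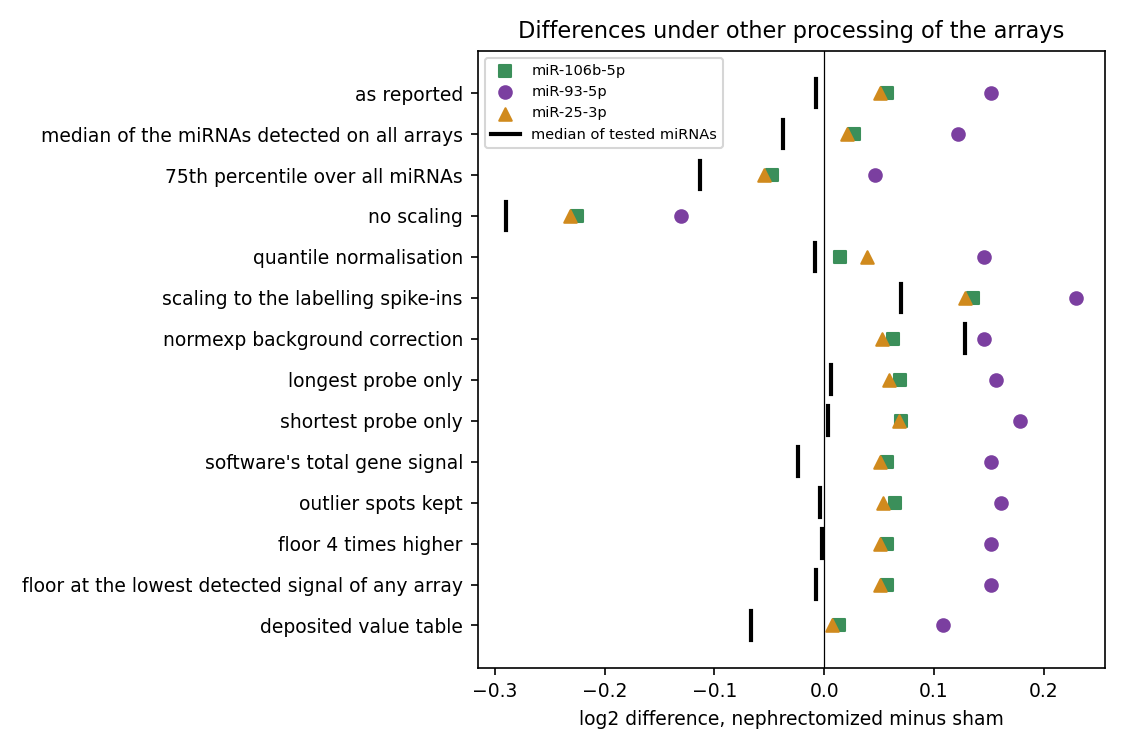
Log2 difference, nephrectomized minus sham (x axis), of the detected members under each processing of the arrays (rows); green squares are miR-106b-5p, purple circles miR-93-5p and orange triangles miR-25-3p, and the black bar is the median of the tested miRNAs. Without scaling the members lie at -0.13, -0.22 and -0.23 (miR-93-5p, miR-106b-5p, miR-25-3p) and the median at -0.29; miR-93-5p is the rightmost member in every row.

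The partners were set against each other by their log2 ratio on the same array, in which a scaling constant cancels. The ratio of miR-93-5p to miR-106b-5p was -0.46, -0.42, -0.47 and -0.44 in nephrectomized kidneys, against -0.51, -0.61, -0.57 and -0.48 in sham kidneys. The ratio of miR-93-5p to miR-25-3p was -0.59, -0.68, -0.73 and -0.68 in nephrectomized kidneys, against -0.79, -0.77, -0.75 and -0.76 in sham kidneys. Both were higher on every nephrectomized array than on any sham array. The ratio to miR-106b-5p was higher by +0.094 ± 0.031 (SE from the group SDs) and that to miR-25-3p by +0.10 ± 0.030. Each had an exact permutation p = 0.0286 (adjusted over the 3 pairs, p = 0.0429). Both ratios use the same miR-93-5p values, and the ratio of the other partners follows from them. The 3 tests are thus not separate evidence.

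Between miR-106b-5p and miR-25-3p no difference was seen. Their ratio was -0.13, -0.26, -0.25 and -0.23 in nephrectomized kidneys, against -0.29, -0.16, -0.18 and -0.28 in sham kidneys. The groups overlapped, and the difference was +0.0065 ± 0.044 (SE from the group SDs, exact permutation p = 0.971). Replicate 1 of the nephrectomized arrays lay above all other arrays.

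The calls on the ratios of miR-93-5p are not firm. The pairs were set with the larger difference of miR-93-5p already known. Of all 28203 ratios between tested miRNAs, 15.4% did not overlap between the groups, and of the 237 ratios of miR-93-5p to another tested miRNA 98 (41.4%) did not, 97 of them (40.9%) higher in nephrectomized kidneys, so a separated ratio was not particular to the partners. Both calls missed the threshold with the longest probe only (adjusted exact p = 0.129 for both), with the shortest probe only (0.214 against miR-106b-5p and 0.0857 against miR-25-3p) and with quantile normalisation (0.0857 and 0.171 for the same partners), with both ratios higher in nephrectomized kidneys each time. Leaving out 1 array gave differences of +0.073 to +0.11 against miR-106b-5p and +0.075 to +0.12 against miR-25-3p. The adjusted p was 0.0857 whichever array was left out. Against miR-106b-5p the exact permutation p was 0.0286 without each sham array in turn and 0.0571 without each nephrectomized array. Against miR-25-3p it was 0.0571 without each sham array and 0.0286 without each nephrectomized array. With 7 arrays (35 regroupings), as with 8, the test passes after adjustment only if at least 2 pairs reach its smallest p. Leaving out an array cannot make separated groups overlap, so both ratios stayed higher on every remaining nephrectomized array than on any sham array. Whether the loss of the calls comes from the smaller design was not tested.

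**Figure D4:**
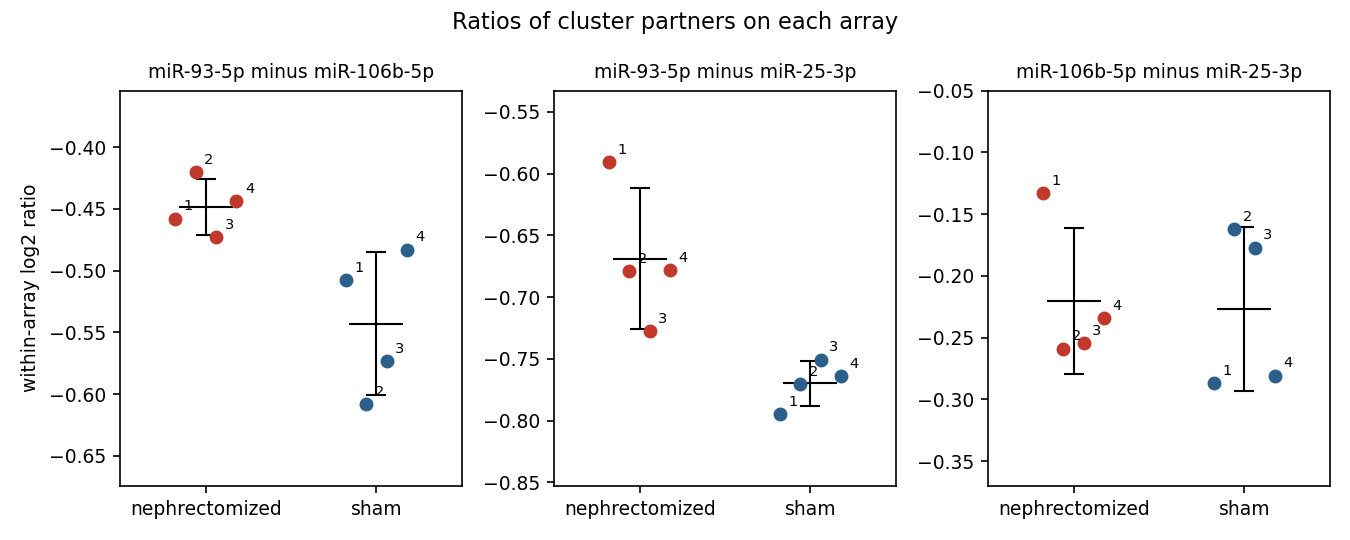
Log2 ratio of 2 members on the same array (y axis), nephrectomized at left and sham at right of each panel; points are arrays numbered by replicate, bars are the mean ± SD (n = 4). The ratios of miR-93-5p to miR-106b-5p and to miR-25-3p do not overlap between the groups, with differences of +0.094 and +0.10, and that of miR-106b-5p to miR-25-3p does, with a difference of +0.0065.

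The seeds of the detected arms are shared with miRNAs from elsewhere in the genome, shown here because they would pair with the same target sites.
miR-17-5p: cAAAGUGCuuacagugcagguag
miR-20a-5p: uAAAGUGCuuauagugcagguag
miR-20b-5p: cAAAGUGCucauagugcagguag
miR-92a-3p: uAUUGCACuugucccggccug
miR-92b-3p: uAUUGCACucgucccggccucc
miR-363-3p: aAUUGCACgguauccaucugu
With the seed of miR-106b-5p and miR-93-5p, the log2 difference was +0.0026 ± 0.060 (SE) for miR-17-5p, -0.0036 ± 0.057 for miR-20a-5p and +0.022 ± 0.067 for miR-20b-5p. With the seed of miR-25-3p, it was +0.0049 ± 0.081 for miR-92a-3p and -0.11 ± 0.11 for miR-363-3p, and miR-32-5p was detected on 0 arrays. All 5 of these tested relatives overlapped between groups. miR-92b-3p had the largest difference of the relatives, at log2 levels of 3.52, 3.78, 3.82 and 3.62 in nephrectomized kidneys, against 3.42, 3.50, 3.30 and 3.54 in sham kidneys. Nephrectomized array 1 lay below the highest sham array, so these groups overlapped too, and the difference of +0.25 ± 0.081 (SE) did not pass (limma adjusted p = 0.131). Whether the differences of miR-93-5p and its relatives differ from each other was not tested.

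**Figure D5:**
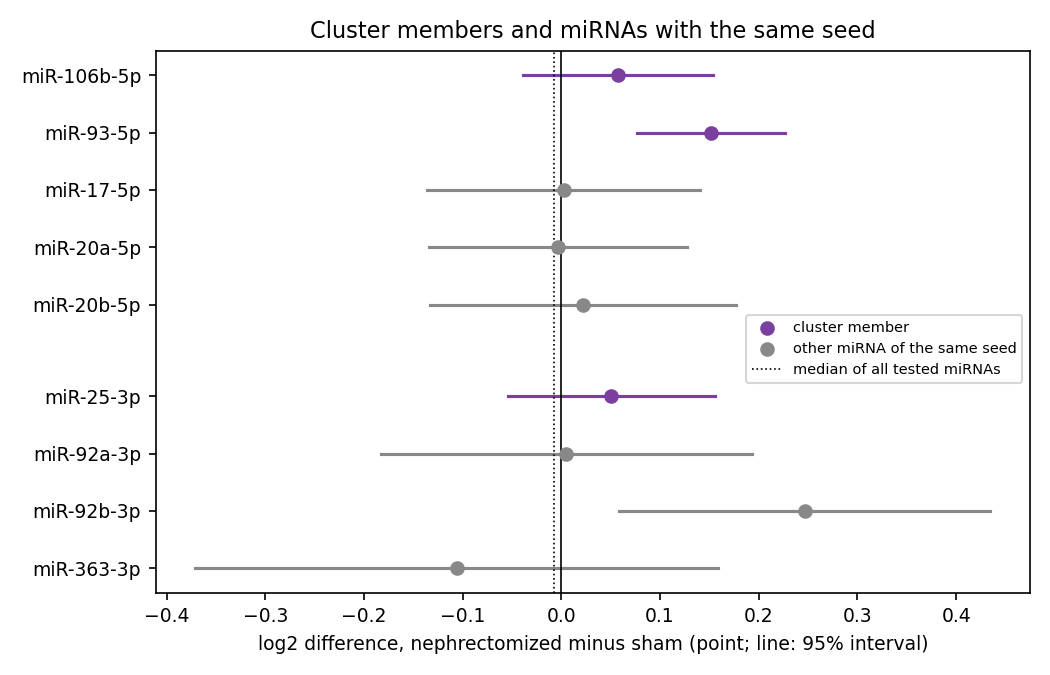
Log2 difference, nephrectomized minus sham (x axis), of the detected members (purple) and of the tested miRNAs with the same seed (grey), rows grouped by seed; points are limma estimates, lines their 95% intervals, and the dotted line is the median of all tested miRNAs. The intervals of miR-93-5p and miR-92b-3p lie above 0 and the other 7 span it; each interval covers a single miRNA without adjustment.

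Some of these relatives belong to the paralogous clusters miR-17-92 and miR-106a-363, which arose from the same ancestor. Of their listed miRNAs, 7 were tested, and 0 passed the threshold, with 0 at an unadjusted p under 0.05. Of the 7, 3 had a difference above 0 and 4 below, with a median of -0.0036 against -0.0077 for all tested miRNAs. The lowest were miR-19a-3p at -0.12 ± 0.14 (SE) and miR-19b-3p at -0.12 ± 0.10, which share a seed with no member.

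Across the 8 arrays, the nearest profiles to each member were taken by the root mean square distance of log2 levels centred on each miRNA's mean, as a description. The nearest to all 3 was miR-425-5p, at 0.042 from miR-93-5p, 0.039 from miR-106b-5p and 0.030 from miR-25-3p. For miR-93-5p, miR-192-5p (0.042) and miR-192-3p (0.052) followed, for miR-106b-5p miR-140-5p (0.040) and miR-194-5p (0.043), and for miR-25-3p miR-186-5p (0.034) and miR-128-3p (0.036). The partners were not the nearest to each other: miR-106b-5p and miR-25-3p lay 0.054 apart, miR-93-5p and miR-106b-5p 0.061, and miR-93-5p and miR-25-3p 0.062. The median distance of a member to the 237 other tested miRNAs was 0.10 to 0.12. All points share their arrays and scaling, and miRNAs with a small spread lie near each other by this measure.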

How the data were processed

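RNA of 8 kidneys was hybridised to one-colour (Cy3) Agilent rat miRNA arrays. Per the file headers, the deposited intensity values come from Agilent Feature Extraction 12.0.3.1 and are background-subtracted. Other deposited columns of 0 or 1 give detection, background and outlier marks. The deposited value table holds log2 values; they were rebuilt from the total gene signal within 1.1e-05 up to a shift per array and a centring per miRNA. Its direction is thus that of the signal, the rule behind the shift is unknown, and its column medians run from -0.25 to 0.17. It served as an alternative.

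Each array held 12128 spots of 1806 probes and 715 control spots. Control and outlier spots (8.10% to 9.01%) were left out; 0 spots were saturated. Spots were averaged per probe, then per miRNA, scaled to the 75th percentile over 214 miRNAs, floored at 0.907 and log2-transformed. A first run used a floor of 0.121; it was replaced after its results were seen, and is given as an alternative. The floor touched 0 values of the members, but it enters their adjusted p through the variance shared by all miRNAs.

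The 238 miRNAs detected on at least 4 arrays were tested with limma 3.58.1 (two-sided, R 4.3.3), and p-values were adjusted over all of them after Benjamini and Hochberg, at a threshold of 0.05. For ratios of members, groups were compared by an exact permutation test, also two-sided. The fit was also run on simulated data with independent noise for each miRNA. That simulation held no shift shared by the miRNAs of an array, so it does not bear on the scaling. The number of arrays limits the precision. Nothing says that the arrays are separate rats beyond the design text's 4 per group, so p-values measure the spread between these arrays. The members, pairs and lists were chosen with earlier results of these data known. Named were the members, miRNAs sharing their seeds, the paralogous clusters, the 3 nearest profiles and cell type markers. The replicate numbers match the slide columns; correlations of same-numbered deviations were 0.056, -0.072, 0.28 and -0.22, so the numbers were not taken as pairs.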

Additional observations from a re-analysis of the deposited data

How the results depend on the processing

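The number of miRNAs past the threshold, 0 as reported, was 19 with the 75th percentile over all miRNAs, 161 without scaling, 156 with normexp, 7 with the total gene signal, 7 with trend and robust variances, 5 with the longest probe, 5 with the shortest probe, 5 with the deposited value table, 4 with a floor 4 times higher, and 1 each with quantile normalisation, spike-in scaling and miRNAs detected on all arrays. Leaving out 1 array gave 0 to 5, with 5 without nephrectomized replicate 3 and 1 without nephrectomized replicate 1. At an unadjusted p under 0.05, 37 were higher and 11 lower as reported, against 31 and 23 with median scaling, 1 and 172 without scaling, 20 and 89 with the 75th percentile over all miRNAs, 36 and 21 with quantile normalisation, 32 and 1 with spike-ins, 140 and 21 with normexp, 34 and 18 with the total gene signal, and 27 and 32 with the deposited value table.

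miR-93-5p passed the threshold with normexp, the total gene signal and the higher floor (+0.15 in each), and reversed without scaling (-0.13). With the floor of the first run, its adjusted p was 0.0760, and with the deposited value table it differed by +0.11 with overlapping groups. Without scaling and with the 75th percentile over all miRNAs, miR-106b-5p reversed (-0.22 and -0.048), as did miR-25-3p (-0.23 and -0.054). Without scaling their limma adjusted p was 0.0447 and 0.0250, where 161 of the 238 tested miRNAs passed. Leaving out 1 array gave +0.14 to +0.16 for miR-93-5p (adjusted p 0.0866 to 0.178), +0.037 to +0.077 for miR-106b-5p and +0.019 to +0.082 for miR-25-3p. The replicate block gave 0 past the threshold and differences of +0.15, +0.057 and +0.051 for miR-93-5p, miR-106b-5p and miR-25-3p (limma adjusted p 0.183, 0.564 and 0.645), and changed no call.

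The ratio of miR-93-5p to miR-106b-5p lost its call with the longest probe (+0.087), the shortest probe (+0.11), quantile normalisation (+0.13) and without any 1 array (+0.073 to +0.11). That to miR-25-3p lost it with the same settings (+0.097, +0.11, +0.11, and +0.075 to +0.12). With 7 arrays the exact permutation test has 35 regroupings in place of 70, but its smallest p is 0.0286 with either number of arrays. The groups of both ratios of miR-93-5p still did not overlap without any 1 array. Whether the losses without 1 array come from the smaller design was not tested. The ratio of miR-106b-5p to miR-25-3p reversed with quantile normalisation (-0.025), and leaving out 1 array gave -0.023 to +0.028, reversed without sham replicates 1 and 4 and nephrectomized replicate 1. Shortest-probe and first-floor settings were added after seeing the data. A slide block could not be fitted, with 1 slide. Where no cause is given, the cause was not tested. Signal over background limits the other arms, which have no measured level.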
